A study of Mus musculus with 12 samples.

Results

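Immunoglobulin and B lineage genes were examined in mouse back skin after imiquimod (IMQ), a Toll-like receptor agonist that gives a psoriasis-like dermatitis. The 9 genes were taken by name from the gene table of 56923 identifiers. They were the heavy chain constant region genes *Ighm* (IgM), *Ighg1*, *Ighg2b* and *Ighg2c* (IgG subclasses) and *Igha* (IgA), the kappa light chain constant region gene *Igkc*, *Jchain*, which joins IgM and IgA subunits, and the B cell genes *Cd79a* and *Ms4a1*. They were selected on earlier count values of these mice, in which immunoglobulin segments were seen among the rises in IMQ-treated mice labelled *Lcn2*-/-. For these genes and the other immunoglobulin genes, comparisons that hold those mice are therefore given as values with no test.

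Bulk RNA-seq was available for 12 female mice of 8 to 10 weeks on a C57BL/6 background, in 4 groups of 3. WT littermates or *Lcn2*-/- mice received 5% IMQ cream or vehicle on shaved back skin for 6 days; the labels give the control treatment as none and the genotype as a knockdown. The groups are called WT control, WT IMQ, *Lcn2*-/- labelled control and *Lcn2*-/- labelled IMQ. *Lcn2* counts went against the genotype label, with 173 to 357 counts in the *Lcn2*-/- labelled control mice and 86 to 201 in the WT control mice, and IMQ still raised them in *Lcn2*-/- labelled skin, to 511 to 830. After IMQ the WT mice had more, at 1010 to 2723, with a log2 difference of -1.49 that did not pass by edgeR (adjusted p = 0.0525) and did by DESeq2 (adjusted p = 0.00457). The labelled tissue is skin, while the extraction text of the labels speaks of another organ; the summed keratinocyte markers lay at or above 4035 CPM (counts scaled by TMM to a common library size) in every mouse. Libraries held 16448226 to 28592110 counts.

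A B cell carries one rearranged heavy chain and one light chain as a membrane receptor, which signals through the CD79 pair. After activation it can become a plasma cell, which secretes the same antibody in bulk, and class switching replaces the IgM constant region with that of another isotype. IgA and IgM polymers contain the J chain. Plasma cells lower surface markers such as CD20, the product of *Ms4a1*, while their immunoglobulin transcripts are very abundant.

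The IgG subclass genes are related in sequence, so the parts that tell them apart matter for reading their counts. The hinge exon, which links the antigen-binding arms to the tail of the antibody, is exon 2 of each secreted transcript on the minus strand of chromosome 12, and differs in length and letters. Capitals mark the cysteine codons, and cysteines of the hinge include those that bond the paired heavy chains. Coordinates and transcripts are from GENCODE M21 (GRCm38).
Ighg1 hinge exon, chr12:113329844-113329882: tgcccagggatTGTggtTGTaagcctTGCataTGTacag
Ighg2b hinge exon, chr12:113307261-113307326: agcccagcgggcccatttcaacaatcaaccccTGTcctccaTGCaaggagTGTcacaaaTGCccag
Ighg2c hinge exon, chr12:113288263-113288325: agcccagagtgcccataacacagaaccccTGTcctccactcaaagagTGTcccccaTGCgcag

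The exons are 39, 66 and 63 bases long, with 4, 4 and 3 cysteine codons. Over the annotated transcripts, no window of 150 bases of any IgG gene occurred exactly in another immunoglobulin gene. At 50 bases, 0.393% of *Ighg1* windows, 4.15% of *Ighg2b* windows and 5.49% of *Ighg2c* windows did. How the authors' counting treated reads that match several genes is not given in the sources used here, so counts may be split between subclasses to some extent.

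*Igkc* had the highest level per length, at a mean of 173 CPM per kb of exon over the 12 mice, followed by *Ighm* at 76.7, *Igha* at 32.2 and *Jchain* at 14.0 CPM per kb. The IgG genes lay lower, at 9.10 CPM per kb for *Ighg2c*, 4.26 for *Ighg2b* and 1.99 for *Ighg1*. *Cd79a* reached 0.256 CPM per kb and *Ms4a1* 0.0256 CPM per kb. These B cell surface genes had 2 to 33 and 0 to 10 counts per library, and did not pass the filter on low counts, which the other 7 members passed. *Pax5*, a transcription factor that defines B cells, was as sparse, at 0 to 11 counts.

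The immunoglobulin genes varied many-fold between mice of the same group. *Igkc* was 21.9, 87.3 and 35.1 CPM in the WT control mice and 17.3, 151 and 31.1 CPM in the WT IMQ mice. It was 311, 62.7 and 62.6 CPM in the *Lcn2*-/- labelled control mice and 49.7, 86.1 and 188 CPM in the *Lcn2*-/- labelled IMQ mice. All 4 groups overlapped, and the highest mouse was an untreated one.

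*Igha* spread as widely between mice. It was 25.6, 103 and 43.3 CPM in WT control, 21.3, 87.8 and 25.8 CPM in WT IMQ, 283, 53.5 and 80.5 CPM in *Lcn2*-/- labelled control, and 56.9, 67.1 and 184 CPM in *Lcn2*-/- labelled IMQ skin. *Jchain* was 12.7, 49.4 and 15.4 CPM in WT control, 6.97, 30.2 and 9.64 CPM in WT IMQ, 137, 30.9 and 39.8 CPM in *Lcn2*-/- labelled control, and 15.5, 21.8 and 54.9 CPM in *Lcn2*-/- labelled IMQ skin. *Lcn2*-/- labelled control mouse 1 was the highest of the 12 for *Igkc*, *Igha*, *Jchain*, *Ighg1* and *Cd79a*, and it also had the largest library. Values without it are given beside the fold changes, shares, segments and list counts that use it.

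*Ighm*, the isotype of B cells before class switching, was the member with the most even levels in *Lcn2*-/- labelled IMQ skin. It was 102, 160 and 68.5 CPM in WT control, 51.9, 243 and 60.7 CPM in WT IMQ, 195, 85.9 and 60.5 CPM in *Lcn2*-/- labelled control, and 166, 267 and 276 CPM in *Lcn2*-/- labelled IMQ skin. Of the *Lcn2*-/- labelled IMQ mice, 2 lay above every mouse of the other groups, while the remaining one lay below WT IMQ mouse 2 and *Lcn2*-/- labelled control mouse 1.

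**Figure D1:**
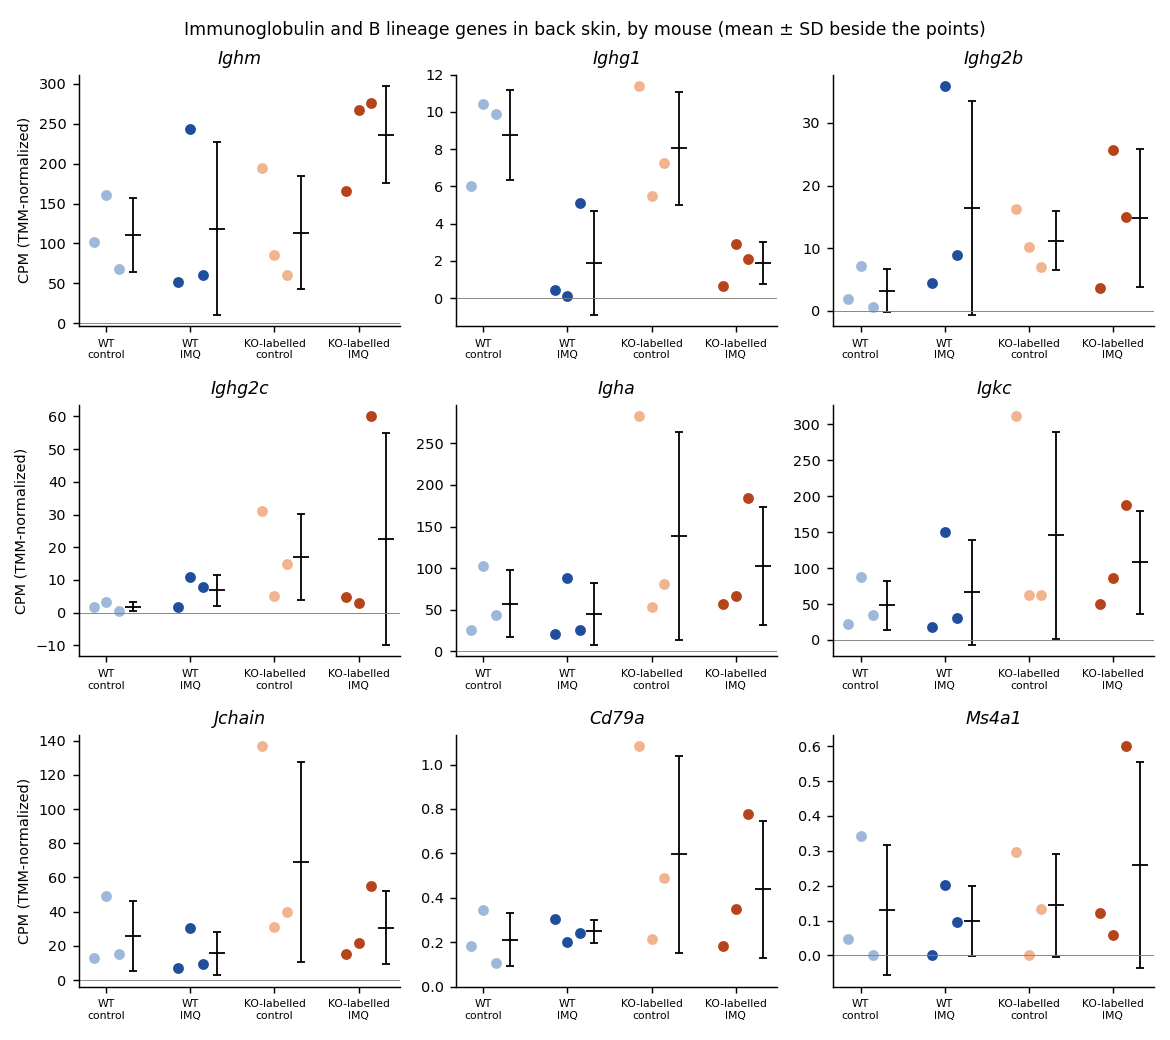
Each panel plots 1 gene; the vertical axis is CPM and each point is a mouse, with the group mean and SD beside the points (n = 3, KO standing for *Lcn2*-/-). The groups overlap in most panels; *Ighg1* lies lower in both IMQ groups, and *Lcn2*-/- labelled control mouse 1 is the highest of the 12 for *Igkc* at 311 CPM.

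In WT skin, IMQ gave no called change in any member. A gene was called where the fold change exceeded 2 and the adjusted p was under 0.05 (edgeR's quasi-likelihood test, Benjamini-Hochberg over 18529 genes). Of the 7 members tested, 0 were called, against 14.9% of all genes tested, and the median log2 fold change of the 7 was 0.10, against -0.02 for all genes. With unadjusted p, 1 member passed as higher and 1 as lower, where 8.4% and 9.79% of all genes did. The WT IMQ mice also belong to a comparison that the choice of members may have used.

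The IgG subclasses gave the largest estimates, in opposite directions. *Ighg1*, the subclass of type 2 responses in mice, was 6.01, 10.4 and 9.89 CPM in WT control skin and 0.424, 0.134 and 5.09 CPM in WT IMQ skin. Every WT IMQ mouse lay below every WT control mouse, which was also so for 20.6% of all genes, and 2 of the 3 had fewer than 10 counts. The log2 fold change was -2.17 ± 0.87 (SE), adjusted p = 0.083. Without WT IMQ mouse 3 it was -4.92 with an adjusted p of 0.00137, so that mouse decided the call.

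*Ighg2b*, another IgG subclass, was 1.89, 7.09 and 0.638 CPM in WT control and 4.42, 35.9 and 8.91 CPM in WT IMQ skin. It overlapped between the groups, with a log2 fold change of 2.33 ± 0.95 and an adjusted p of 0.0902. Without WT control mouse 2 the value was 3.67 and the adjusted p 0.0484, and without WT IMQ mouse 2 it was 1.04. *Ighg2c* was 1.71, 3.27 and 0.425 CPM against 1.64, 10.8 and 7.90 CPM, a log2 fold change of 1.89 ± 1.21 with an adjusted p of 0.269. It is the subclass that interferon-gamma favours in mice.

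The other members lay close to no change in WT skin, with log2 fold changes of 0.10 ± 0.60 for *Ighm*, -0.35 ± 0.81 for *Igha*, 0.46 ± 0.94 for *Igkc* and -0.74 ± 0.79 for *Jchain*. With these errors, a 2-fold change in either direction could not be told from none. *Cd79a* and *Ms4a1*, fitted without the filter on low counts, gave 0.17 ± 0.84 and -0.47 ± 1.38.

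Between untreated *Lcn2*-/- labelled and WT mice, 0 of 7 members were called, against 0.0108% of all genes. *Ighg2c* alone passed with unadjusted p, which 1.35% of all genes did as higher. It was 31.2, 5.12 and 14.9 CPM in the *Lcn2*-/- labelled control mice against 1.71, 3.27 and 0.425 CPM in WT control, with no overlap between the groups; 4.19% of all genes lay higher without overlap. Its log2 fold change was 3.22, adjusted p = 0.698 by edgeR, and 2.45 without *Lcn2*-/- labelled control mouse 1.

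The median log2 fold change of the 7 members in that comparison was 1.42, against 0.00 for all genes tested. The values for *Igkc*, *Igha* and *Jchain* were 1.60, 1.28 and 1.42 with all mice. Without *Lcn2*-/- labelled control mouse 1 they were 0.38, 0.22 and 0.45, and *Ighm* turned from 0.04 to -0.59. Both comparisons above share the WT control mice.

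After IMQ, 5 of the 7 members were higher and 2 lower in *Lcn2*-/- labelled than in WT skin, as a description of the values that bear on how the members were chosen. The log2 fold changes were 1.74 for *Ighg2c*, 1.19 for *Igha*, 1.00 for *Ighm*, 0.98 for *Jchain* and 0.70 for *Igkc*, and -0.04 and -0.14 for *Ighg1* and *Ighg2b*. All 9 members overlapped between these groups, where 16% of all genes lay higher and 17.3% lower without overlap. The median was 0.98, against -0.02 for all genes, and fell between 0.0375 and 2.07 as each mouse was left out; WT IMQ mouse 2 gave the upper end.

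IMQ within the *Lcn2*-/- labelled mice gave a description that turned on 1 library. The log2 fold changes were 1.06 for *Ighm*, -0.44 for *Igha*, -0.44 for *Igkc* and -1.17 for *Jchain*. Without *Lcn2*-/- labelled control mouse 1 they were 1.69, 0.62, 0.78 and -0.20, and the median over the 7 members turned from -0.44 to 0.78. *Ighg1* was lower in both fits, at -2.08 and -1.74. Its levels were 11.4, 5.49 and 7.28 CPM in *Lcn2*-/- labelled control and 0.672, 2.92 and 2.10 CPM in *Lcn2*-/- labelled IMQ skin, with no overlap, as for 22.8% of all genes on the lower side. *Ighg2c* in *Lcn2*-/- labelled IMQ skin was 4.70, 3.04 and 60.1 CPM, so that its group mean rests on mouse 3.

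**Figure D2:**
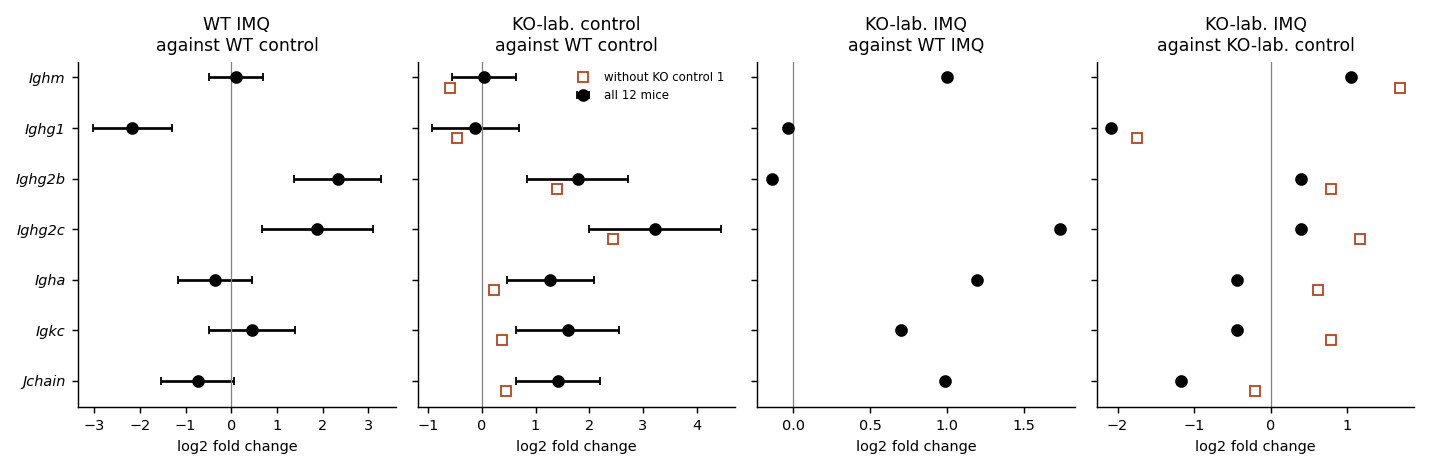
Log2 fold changes (horizontal axes) of the 7 members that passed the filter, in 4 comparisons, with SE for the tested ones (bars). Open squares leave out *Lcn2*-/- labelled control mouse 1, with which *Igha* in the last panel turns from -0.44 to 0.62.

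The make-up of the heavy chain message differed between mice as well as its amount. *Ighm* took 61.2% ± 10.5 (SD, n = 3) of heavy chain constant region counts in WT control, 61.3% ± 4.96 in WT IMQ, 41.3% ± 10.5 in *Lcn2*-/- labelled control and 64.9% ± 11.98 in *Lcn2*-/- labelled IMQ skin. *Igha* took 29.6% ± 9.74, 24.4% ± 1.79, 43.8% ± 9.45 and 25.5% ± 7.98. The *Ighm* share of the untreated *Lcn2*-/- labelled mice, the group with the lowest mean, was 35.4%, 53.4% and 35.1%, below each WT control mouse (54.8% to 73.3%).

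The IgG genes together took 6.89%, 7.59% and 8.94% of heavy chain counts in WT control, and 12.7%, 12.9% and 17.0% in *Lcn2*-/- labelled control skin. These groups did not overlap. With 3 mice against 3 the exact permutation test could not go below 0.1, which it gave for both shares (two-sided, 0.267 after adjustment over 8 such tests). Light over heavy chain counts per kb, 1.95 ± 0.46 against 1.08 ± 0.38, also gave p = 0.1 (exact permutation, adjusted 0.267). Without *Lcn2*-/- labelled control mouse 1 the group means were 14.96% for IgG, 44.3% for *Ighm* and 1.69 for light over heavy chain, still with no overlap, and the exact permutation p was 0.2 for each, the smallest that 2 mice against 3 allow. IgG took 8.03%, 12.4% and 20.02% in WT IMQ skin (exact permutation p = 0.2 against WT control) and 4.23%, 8.65% and 14.5% in *Lcn2*-/- labelled IMQ skin.

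Within IgG, *Ighg1* took the largest share of the subclasses in each WT control mouse and less than *Ighg2b* and *Ighg2c* in each WT IMQ mouse. It took 4.30%, 3.62% and 7.91% of heavy chain counts in WT control and 0.526%, 0.0354% and 4.65% in WT IMQ skin. In *Lcn2*-/- labelled skin the share was 2.08%, 3.41% and 4.23% in control and 0.287%, 0.795% and 0.389% in IMQ mice. *Ighg2b* took 1.44% ± 0.98 in WT control and 7.69% ± 2.02 in WT IMQ skin. *Jchain* over *Igha* per kb was 0.470 ± 0.081 in WT control and 0.369 ± 0.025 in WT IMQ skin (exact permutation p = 0.2), and 0.550 ± 0.055 and 0.317 ± 0.028 in *Lcn2*-/- labelled control and IMQ skin, which did not overlap.

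**Figure D3:**
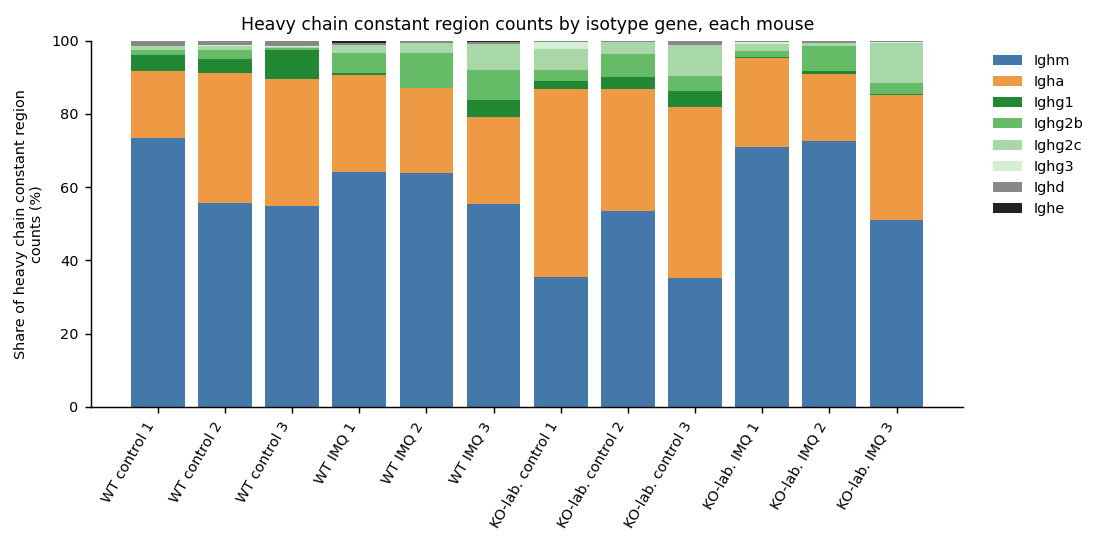
Stacked bars show the percentage of heavy chain constant region counts (vertical axis) that each isotype gene takes in each mouse (horizontal axis). *Ighm* (blue) and *Igha* (orange) make up most of every bar, and the *Ighm* part is lowest in *Lcn2*-/- labelled control mice 1 and 3, at 35.4% and 35.1%.

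The other constant region genes were minor. *Ighd* (IgD), which naive B cells co-express with IgM, had 35 to 76 counts in WT control and 8 to 27 in WT IMQ skin, with a log2 fold change of -1.38 ± 0.59 and an adjusted p of 0.103. *Ighg3* was mostly at 0 to 25 counts, with 331 in *Lcn2*-/- labelled control mouse 1. *Ighe* (IgE) had 0 counts in each *Lcn2*-/- labelled control mouse and at most 9 elsewhere. Kappa took 89.0% to 96.1% of light chain constant region counts over the mice; of the lambda genes *Iglc1* was the largest in 3 of the 4 groups by mean share, while *Iglc2* and *Iglc3* are near copies whose counts may be split.

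V segments, the antigen-binding parts that each B cell rearranges once, carried 434 to 12551 counts per mouse. Of 346 V segments listed, 203 had a count in some mouse, and 92 to 165 per mouse. Thinned analytically to 434 counts in each mouse, 82.6 to 106 segments were expected, with group medians of 90.4, 90.5, 96.4 and 98.9 in WT control, WT IMQ, *Lcn2*-/- labelled control and *Lcn2*-/- labelled IMQ skin. The most abundant segment took 5.12% to 10.1% of V counts in a mouse, so no mouse was dominated by 1 segment. Shares of V counts are given with intervals that cover counting error only, since reads from the same plasma cell are not independent.

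The most abundant segment was *Iglv1* (chr16:19085017-19085500, minus strand) in 5 mice, and it had the most counts over all mice, 1745, ahead of *Igkv1-117* with 1180 and *Igkv1-110* with 1037. *Igkv1-135* led in WT IMQ mouse 2 and *Lcn2*-/- labelled control mouse 2, and *Igkv1-110* in WT IMQ mouse 1. *Igkv8-21* had 268 counts in WT control mouse 2 and 9 or fewer in the other WT control mice. *Igkv14-126* had 656 in *Lcn2*-/- labelled control mouse 1 and 5 and 7 in the other 2 of its group. These counts of *Igkv8-21* and *Igkv14-126* each stood in a single mouse of the group. *Igkv1-88* had 2, 125 and 35 counts in the *Lcn2*-/- labelled IMQ mice. *Igkv1-135*, by contrast, had 384, 116 and 39 counts in *Lcn2*-/- labelled control and 5, 9 and 14 in WT control skin (log2 fold change 3.92 ± 1.22, adjusted p = 0.614 by edgeR, and 3.12 without *Lcn2*-/- labelled control mouse 1).

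The V exon shown is that of *Igkv19-93*, the most abundant segment of *Lcn2*-/- labelled IMQ mouse 1. It was named as such, from values of the mice that led to the choice of genes. No 30 bases of this exon occur in another immunoglobulin transcript of the annotation. Capitals mark the 3 cysteine codons, of which the last 2 pair within the V domain.
Igkv19-93 V exon, chr6:68736297-68736591, minus strand, GRCm38: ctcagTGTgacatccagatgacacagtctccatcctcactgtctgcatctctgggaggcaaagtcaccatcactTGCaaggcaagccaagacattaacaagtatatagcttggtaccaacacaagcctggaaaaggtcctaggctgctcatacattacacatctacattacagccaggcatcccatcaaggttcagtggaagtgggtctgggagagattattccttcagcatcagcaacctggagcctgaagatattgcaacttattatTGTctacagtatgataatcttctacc

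*Igkv19-93* had 6, 10 and 10 counts in WT control, 1, 8 and 12 in WT IMQ, 75, 13 and 19 in *Lcn2*-/- labelled control and 86, 42 and 227 in *Lcn2*-/- labelled IMQ skin. As a share of V counts it was 7.89% (95% Wilson interval 6.43 to 9.64), 1.79% (1.32 to 2.41) and 4.86% (4.28 to 5.52) in the *Lcn2*-/- labelled IMQ mice, and between 0.230% and 1.42% in the other 9 mice. The highest of those 9, 1.42% in WT control mouse 3, had an interval of 0.77 to 2.59, which overlapped that of *Lcn2*-/- labelled IMQ mouse 2. In CPM, *Lcn2*-/- labelled IMQ mouse 2, at 2.455, did not lie above *Lcn2*-/- labelled control mouse 1, at 2.463. All *Lcn2*-/- labelled IMQ mice lay above all WT IMQ mice in CPM, as for 16% of all genes. *Igkv19-93* was the most abundant segment of *Lcn2*-/- labelled IMQ mouse 1. Segments in these mice were what led to the choice of genes, so this is a description with no test. Between untreated *Lcn2*-/- labelled and WT mice its log2 fold change was 1.71 ± 0.78 with an adjusted p of 0.754 by edgeR, and 0.90 without *Lcn2*-/- labelled control mouse 1.

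**Figure D4:**
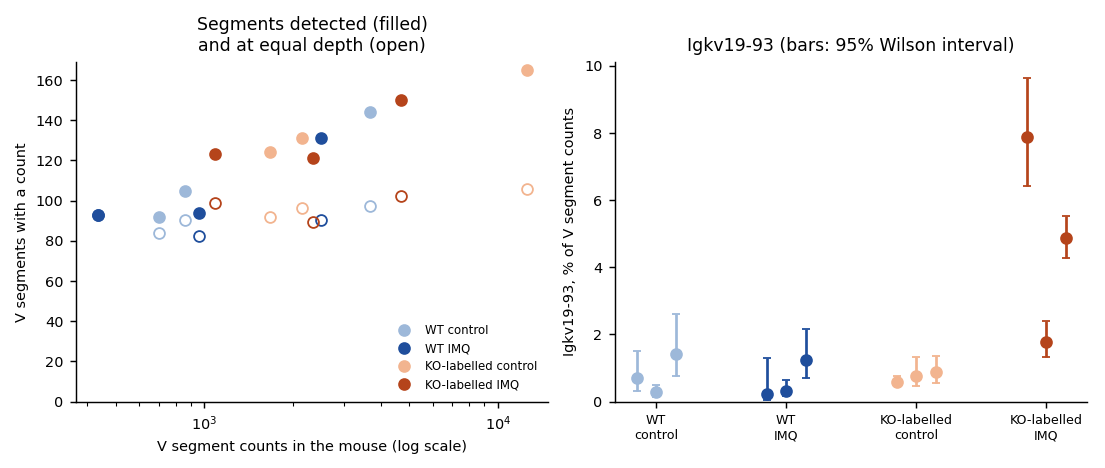
Left, the number of V segments with a count (filled) and the number expected at 434 counts (open) against the V counts of each mouse (log scale). Right, *Igkv19-93* as a percentage of V counts by mouse, with 95% Wilson intervals. The 3 *Lcn2*-/- labelled IMQ mice, at 1.79% to 7.89%, lie above the others, while the interval of the lowest overlaps those of some other mice.

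Of 91 segments that passed the filter among 380 V, D and J segments, 0 were called higher and 2 lower by edgeR in WT IMQ against WT control skin, where 7.15% and 7.77% of all genes were. Both were kappa segments of few counts: *Igkv4-70* went from 8, 28 and 15 counts to 0, 1 and 0 (adjusted p = 0.0196 by edgeR), and *Igkv6-17* from 7, 13 and 16 to 0, 2 and 0 (adjusted p = 0.0303 by edgeR, 0.05003 with the replicate block). DESeq2 called these and also *Igkv8-24* and *Ighv10-1* as lower (adjusted p = 0.0211 and 0.0372), which are named after their values were seen.

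Between untreated *Lcn2*-/- labelled and WT mice edgeR called 0 segments. DESeq2 called 1, *Igkv4-91*, also named after its values were seen, as higher (adjusted p = 0.0009965, and 0.35 by edgeR). With unadjusted p, 14 of 91 were higher and 0 lower, against 1.35% and 0.928% of all genes, and the median log2 fold change of the 91 was 1.26, against 0.00 for all genes. This rested on *Lcn2*-/- labelled control mouse 1, which had 12551 V counts against 1679 and 2157 in the others of its group. Without it 4 were higher and 3 lower with unadjusted p, where 1.95% of all genes in that fit were higher. In the same fit 0 segments were called, against 0.167% of all genes, and the median was 0.10.

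Other B lineage genes were read from lists of receptor and signalling genes, transcription factors, plasma cell genes, germinal centre genes, early B cell genes, and genes of B cell survival, homing and antibody transport. Of 67 such genes, 50 were tested. In WT skin IMQ called 9 higher and 5 lower (28%, against 14.9% of all genes), and in *Lcn2*-/- labelled skin 13 higher and 6 lower (38%, against 13.6% of all genes, 7.38% higher and 6.27% lower). The lists were chosen with earlier results of these mice known, so these shares are a description and the lists were not tested as sets. Between untreated genotypes 0 were called by edgeR or by DESeq2, and 2 passed as lower with unadjusted p, against 0.928% of all genes. Without *Lcn2*-/- labelled control mouse 1, 14 rose and 5 fell under IMQ in *Lcn2*-/- labelled skin, of 53 that passed the filter. Many of these genes are also expressed by other skin and immune cells.

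Receptor and signalling genes moved in both directions under IMQ. Of 14 tested, 4 rose and 2 fell in WT skin, and 7 rose and 2 fell in *Lcn2*-/- labelled skin. *Cd79b*, named after its values were seen, rose in *Lcn2*-/- labelled skin with each mouse left out (2.38 to 2.88, adjusted p at most 0.00532 by edgeR). In WT skin it ran from 0.70 to 1.38, with adjusted p under 0.05 in 2 of 6 such fits. *Cd22*, *Cd72* and *Cd37*, also named afterwards, rose in *Lcn2*-/- labelled skin with adjusted p under 0.05 in each such fit. In WT skin *Cd72* rose too, by 1.62 to 2.13, with adjusted p under 0.05 by edgeR in 6 of 6 such fits. *Cd22* rose there by 1.49 to 2.67, under 0.05 in 5 of 6, and *Cd37* ran from -0.09 to 0.62, in 0 of 6. *Fcrl5*, an Fc receptor-like protein of B cells and plasma cells, rose from 0, 3 and 0 counts in WT control to 133, 272 and 97 in WT IMQ, and from 2, 5 and 1 to 265, 70 and 273 in *Lcn2*-/- labelled skin. All IMQ mice lay far above all control mice, with log2 fold changes of 7.60 ± 1.01 (adjusted p = 0.000302 by edgeR) and 6.66 ± 0.90 (adjusted p = 0.000546 by edgeR). The calls held with each mouse left out, while the WT value ran from 6.91 to 10.64, since 2 of the 3 control mice had no count.

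*Fcrla*, an intracellular Fc receptor-like protein of B cells, was the one gene of these lists called by edgeR when the change under IMQ was tested for a difference by genotype. It had 33, 41 and 12 counts in WT control skin and 1 in each WT IMQ mouse. It had 33, 8 and 11 counts in *Lcn2*-/- labelled control and 9, 16 and 28 in *Lcn2*-/- labelled IMQ skin. It fell in WT skin by 4.36 on the log2 scale (SE 0.75, adjusted p = 0.00141 by edgeR), while the value in *Lcn2*-/- labelled skin was 0.63 ± 0.55. The difference of responses was 4.99 ± 0.94 (adjusted p = 0.031 by edgeR, where 1.65% of all genes were called, 1.07% as higher). It was also the one gene of the lists called between the IMQ groups, higher in *Lcn2*-/- labelled skin by 4.05 ± 0.76 (adjusted p = 0.0245 by edgeR), where 0.766% of all genes were called higher. The adjusted p of the difference of responses was under 0.05 in 3 of 12 fits that left out a mouse, with a highest value of 0.108 without WT IMQ mouse 1, and was 0.0667 with the replicate block. Between the IMQ groups it was under 0.05 in 1 of 6 such fits, with a highest value of 0.135 without WT IMQ mouse 1, and was 0.0544 with the block.

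*Tnfrsf13c*, the receptor for the survival factor BAFF, was sparse, with 53 counts at most, and fell in *Lcn2*-/- labelled skin (-4.54 ± 1.40, adjusted p = 0.0345 by edgeR). That call was kept in 1 of 6 fits that left out a mouse, with a highest adjusted p of 0.110 without *Lcn2*-/- labelled IMQ mouse 2. In WT skin it was -2.82 ± 1.40 (adjusted p = 0.154 by edgeR).

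Of 7 transcription factors tested, 1 rose and 1 fell in each genotype under IMQ. *Bach2*, a repressor that holds B cells back from plasma cell fate, fell from 17.0 to 81.6 CPM in WT control mice to 4.97 to 8.43 CPM in WT IMQ mice (-3.07 ± 0.60, adjusted p = 0.00328 by edgeR). In *Lcn2*-/- labelled skin it fell from 46.5 to 104 CPM to 5.70 to 15.3 CPM (-2.83 ± 0.59, adjusted p = 0.00589 by edgeR). Both calls held with each mouse left out. *Pou2f2*, an octamer-binding factor of B cells, rose by 2.12 ± 0.60 in WT and 2.40 ± 0.60 in *Lcn2*-/- labelled skin on the log2 scale (adjusted p = 0.0207 and 0.0145 by edgeR). Without WT IMQ mouse 2 the WT value was 1.46 and its adjusted p 0.0836, and without *Lcn2*-/- labelled IMQ mouse 3 the adjusted p in *Lcn2*-/- labelled skin was 0.055.

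Of 14 plasma cell genes tested, 2 rose and 1 fell in WT skin, and 3 rose and 1 fell in *Lcn2*-/- labelled skin. The 2 that rose in WT skin were *Sdc1* and *Prdm1*, named after their values were seen. With a mouse left out they ran from 1.24 to 1.61 and 1.00 to 1.24, with adjusted p under 0.05 by edgeR in 6 of 6 fits. In *Lcn2*-/- labelled skin they ran from 0.23 to 0.59 and 0.21 to 0.51, in 0 of 6. Their difference of responses was under 0.05 in 2 and 1 of 12 such fits. *Cd38*, a surface ectoenzyme, rose in *Lcn2*-/- labelled skin (2.77 ± 0.60, adjusted p = 0.00715 by edgeR) and was 1.17 ± 0.57 in WT skin (adjusted p = 0.145). *Tnfrsf17*, the plasma cell survival receptor BCMA, had 21, 6 and 10 counts in *Lcn2*-/- labelled control and 18, 40 and 38 in IMQ skin (1.93 ± 0.55, adjusted p = 0.0239 by edgeR). In WT skin it had 35, 24 and 32 counts in control and 7, 28 and 18 in IMQ mice (-0.46 ± 0.53, adjusted p = 0.549 by edgeR), and the difference of responses, 2.39 ± 0.76, did not pass (adjusted p = 0.0978). *Slamf7*, a receptor of plasma cells and other lymphocytes, fell in both genotypes (-1.65 ± 0.46 and -1.44 ± 0.45, adjusted p = 0.0196 and 0.0372 by edgeR). For *Tnfrsf17* and *Slamf7* some mice, left out, took the adjusted p above 0.05, to at most 0.0818 and 0.133 in *Lcn2*-/- labelled skin and, for *Slamf7*, 0.0865 in WT skin.

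**Figure D5:**
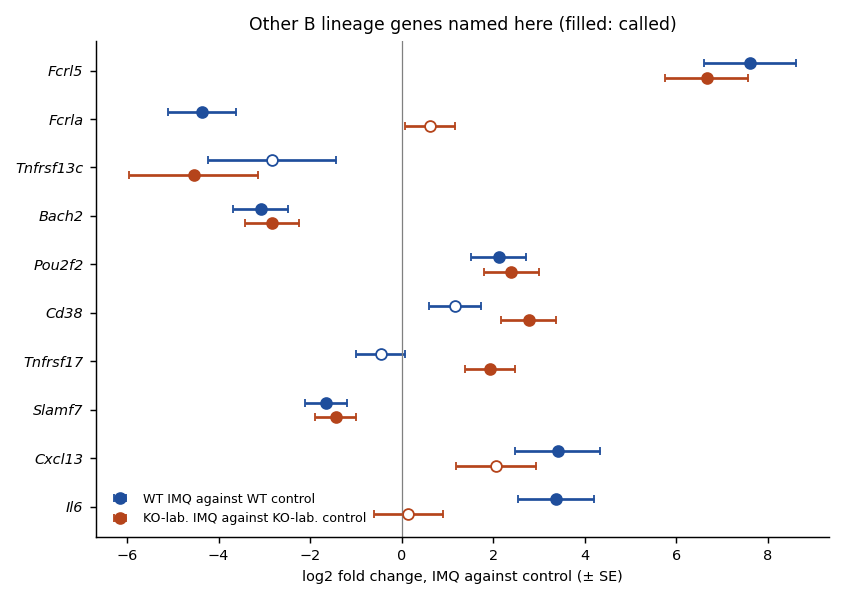
Log2 fold changes with SE (horizontal axis) of named B lineage genes under IMQ, in WT (blue) and *Lcn2*-/- labelled (red) mice, filled where called. *Fcrl5* rose in both; *Fcrla* fell by 4.36 in WT and was 0.63 in *Lcn2*-/- labelled skin.

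Among genes of survival, homing and antibody transport, 11 were tested. Of these 2 rose and 1 fell in WT skin, and 2 rose and 2 fell in *Lcn2*-/- labelled skin. *Ccl27a*, named after its values were seen, fell in both genotypes with adjusted p under 0.05 by edgeR in 6 of 6 fits that left out a mouse. *Cxcl12*, also named afterwards, rose in 6 of 6 such fits in *Lcn2*-/- labelled skin, and passed in 0 of 6 in WT skin. *Cxcl13*, the chemokine that draws B cells to follicles, rose in WT skin (3.41 ± 0.92, adjusted p = 0.0203 by edgeR) and was 2.06 ± 0.88 in *Lcn2*-/- labelled skin (adjusted p = 0.112). Without WT control mouse 1 the adjusted p in WT skin was 0.0714. *Il6*, a cytokine that supports plasma cells, had 5, 19 and 0 counts in WT control and 58, 48 and 95 in WT IMQ skin (3.37 ± 0.83, adjusted p = 0.0108 by edgeR). In *Lcn2*-/- labelled skin it had 37, 7 and 42 counts in control and 11, 29 and 25 in IMQ mice (0.15 ± 0.76, adjusted p = 0.908 by edgeR), and the difference of responses was -3.22 ± 1.11 (adjusted p = 0.117). *Pigr*, which carries IgA and IgM across epithelia, had 10, 9 and 7 counts in *Lcn2*-/- labelled control and 0 in each *Lcn2*-/- labelled IMQ mouse, at least 2.08-fold lower against a floor of 3 counts per library. With a mouse left out its adjusted p by edgeR was under 0.05 in 2 of 6 fits, with a highest value of 0.0587 without *Lcn2*-/- labelled IMQ mouse 3.

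No germinal centre gene was called in any comparison by edgeR, of 4 tested; with unadjusted p, 1 passed, as higher in *Lcn2*-/- labelled than WT IMQ skin, where 3.1% of all genes did. That was *Gcsam*, a germinal centre signalling protein named after its values were seen, at 1.18 ± 0.39 (adjusted p = 0.0916 by edgeR); DESeq2 gave it an adjusted p of 0.0305. The most abundant were *Mki67*, *S1pr2* and *Fas*, which other dividing or migrating cells also express. None of 7 early B cell genes passed the filter; *Dntt*, *Rag1* and *Vpreb1* were the highest, at up to 27, 14 and 8 counts.

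Markers of other cells moved under IMQ beside these genes, and their part in the results was not tested. Summed macrophage and dendritic cell markers (6 genes) were 447 to 1642 CPM in WT control, 995 to 1697 in WT IMQ, 414 to 752 in *Lcn2*-/- labelled control and 1632 to 2277 in *Lcn2*-/- labelled IMQ skin. The 7 T cell markers summed to 35.6 to 61.1, 17.1 to 40.5, 24.8 to 49.3 and 39.2 to 58.6 CPM, and the 5 red blood cell markers to 24.9 to 139, 179 to 598, 103 to 237 and 338 to 1089 CPM, in the same order. The 6 neutrophil markers summed to at most 48.6 CPM in control and at least 3622 CPM in IMQ skin of either genotype. The 6 keratinocyte markers summed to 27511 to 36760 CPM in WT IMQ and 15520 to 26160 in *Lcn2*-/- labelled IMQ skin, and the 6 fibroblast markers to 10041 to 10596 and 19630 to 20462 CPM, neither with overlap. The 5 skeletal muscle markers summed to 8987 to 10224 CPM in WT control and 3459 to 4233 in WT IMQ skin.

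The 5 adipocyte markers were highest in the mice that led their group for *Igkc* in 3 of the 4 groups: 2977 CPM in WT control mouse 2, 2233 in WT IMQ mouse 2 and 4377 in *Lcn2*-/- labelled control mouse 1, against 1016 to 2364 in the other mice of those groups. The 7 lymph node markers, which include *Cxcl13*, summed to 143 to 206 CPM in WT control, 242 to 798 in WT IMQ, 126 to 211 in *Lcn2*-/- labelled control and 224 to 310 in *Lcn2*-/- labelled IMQ skin, with the 798 in WT IMQ mouse 2. Of that list *Chst4* had at most 1 count and *Glycam1* at most 9 per library. The lymph node, macrophage and dendritic cell, and fibroblast lists each summed highest in the mouse that led its group for *Igkc* in all 4 groups. The T cell, red blood cell, neutrophil, keratinocyte and skeletal muscle lists did not. The part of these lists in the immunoglobulin values was not tested. The 5 mammary markers summed to at most 0.733 CPM. In bulk skin, fewer cells of a type and less RNA per cell cannot be told apart.

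The genes whose levels over the 12 mice were most like the mean of the immunoglobulin and *Jchain* members, among 18426 genes outside the immunoglobulin loci, were *Mrap*, *Gm12236*, *Acss3*, *4930402H24Rik* and *Car5b* (Pearson r of 0.896 to 0.876 on log2 CPM). For the mean of *Cd79a* and *Ms4a1* they were *Il1r2*, *A830018L16Rik*, *Ddhd2*, *A530064D06Rik* and *Atg4a* (r of 0.872 to 0.839). *Lcn2*-/- labelled control mouse 1 had the most counts for 9 of these 10 genes, and the 12 points share 4 groups, so these values describe the libraries only.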

How the data were processed

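RNA was sequenced from back skin of 12 mice in 4 groups of 3, grouped by GEO's labels. The authors deposited whole-number read counts per Ensembl gene; their processing notes name HISAT and the build mm8, and the counting tool and annotation are not given in the sources used here. Symbols, lengths and coordinates were taken from GENCODE M21 (GRCm38) by gene identifier, which matched 52073 of 56923 identifiers; those unmatched held 0.567% of counts. From the deposited counts, genes were filtered with filterByExpr (minimum count 10, minimum total 15), which left 18529, normalized by TMM and fitted to 4 group means with edgeR 4.0.16 (quasi-likelihood, robust) in R 4.3.3. P-values were adjusted by Benjamini-Hochberg over all 18529. A call was a fold change above 2 and an adjusted p under 0.05; calls with unadjusted p are given beside it. The text gives levels as CPM on TMM-normalized libraries, and per kb where genes are compared. Alternatives were RLE size factors, DESeq2 1.42.0, other filters, no fold limit, only the compared mice, a replicate block and leaving out each mouse. Same-numbered mice were different animals. On simulated counts for WT IMQ against WT control with 200 genes changed 4-fold, 72.5% were recovered and 5.23% of calls were false. No library pair within a group was a duplicate: the smallest chi-square per degree of freedom over the 12 such pairs was 11.8. Pairs between groups were not compared. Intervals of shares (95% Wilson) and the floor of 3 counts cover counting error only. P-values set the differences between groups against the spread between these mice.

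The members and lists were chosen with earlier results of these data known. Named were the 9 members, the other constant region genes, up to 3 genes of each B lineage list (largest called change, or highest CPM where none was called), the 3 V segments with most counts, the most abundant segment of each mouse, called segments and the 5 genes most like the members. Marker lists are given as summed CPM. Contrasts with *Lcn2*-/- labelled IMQ mice were tested for genes outside the immunoglobulin loci only.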

Additional observations from a re-analysis of the deposited data

Results flagged for a closer look

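*Fcrla* was the B lineage gene outside the immunoglobulin loci whose response to IMQ differed between genotypes by the test of the difference itself: 4.99 on the log2 scale, *Lcn2*-/- labelled minus WT (adjusted p = 0.031 by edgeR). It rests on 1 count in each WT IMQ mouse. Groups of 3 mice are too small for a check of single outlying mice.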

How the results depend on the processing

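No member was called in either tested comparison under RLE, DESeq2, another filter, no fold limit, only the compared mice or the replicate block; leaving out each mouse gave 0 to 1 in WT IMQ against WT control and 0 in the untreated genotypes. The median over the members ranged from 0.0375 to 2.07 in *Lcn2*-/- labelled against WT IMQ skin and from -1.17 to 0.78 in *Lcn2*-/- labelled IMQ against control skin, the last without *Lcn2*-/- labelled control mouse 1; the cause was not tested. Other B lineage genes called in any comparison numbered 24, 31 with DESeq2, 21 with the replicate block and 17 to 30 with a mouse left out.

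Counts over all genes moved more. In the untreated genotypes 2 genes were called, and 77 with DESeq2, 5 without a filter, 0 with the replicate block, 0 with only the compared mice, and 0 to 32 with a mouse left out. In *Lcn2*-/- labelled against WT IMQ skin 279 were called, and 739 with DESeq2, 70 with the replicate block, 886 without a fold limit, 461 with only the compared mice, and 0 to 1113 with a mouse left out. For the difference of responses it was 305, and 1175 with DESeq2, 10 with the replicate block, and 2 to 1233 with a mouse left out. Without a fold limit, 5287 were called in WT and 4691 in *Lcn2*-/- labelled skin, against 2765 and 2528. The cause was not tested.

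Uncalled values near 0 changed sign. In WT IMQ against WT control, *Ighm* was -0.0239 with the replicate block, and with a mouse left out the values ran from -0.98 (without WT IMQ mouse 2) to 0.48 (without WT control mouse 2) for *Ighm*, -1.29 to 0.38 for *Igha*, -1.64 to 0.15 for *Jchain* and -0.99 to 1.22 for *Igkc*, with the same 2 mice at the ends. In the untreated genotypes, *Ighg1* was 0.0185 with the replicate block and ran from -0.46 to 0.0911 with a mouse left out, and *Ighm* from -0.59 to 0.44; both lowest values were without *Lcn2*-/- labelled control mouse 1.

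The replicate numbers did not pair the mice: over 18 same-numbered pairs the deviations from group means correlated at -0.051 on average (-0.555 to 0.199), and 4 of 12 mice correlated best with their own number. Depth limits *Cd79a* and *Ms4a1*, with at most 33 and 10 counts per library.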
